A study of Mus musculus with 4 samples.

Results

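The genes described are 10 cytokine receptor chains of the inflammatory cytokines IL-6, IL-12, IL-18, IL-27 and interferon-gamma and of the regulatory cytokine IL-10. They were taken by symbol from the deposited table of 24062 genes, in which all 10 had a row: Il6ra, Il6st, Il27ra, Il12rb1, Il12rb2, Il18r1, Il18rap, Ifngr1, Ifngr2 and Il10ra. The RNA came from gBT-I cells, CD8+ T cells with a transgenic T cell receptor for a herpes simplex virus glycoprotein B peptide. Splenocytes of SPF gBT-I transgenic mice were activated in culture with that peptide and LPS, and received an interleukin that the labels call IL-1 on the days before transfer. On day 4 they were injected intravenously into C57BL/6 recipients housed without specific pathogens (SPF, specific pathogen free) or without any microbes (GF, germ free), and 7 days after transfer the gBT-I cells were enriched and sorted from the spleen. Each group had 2 libraries. All cells thus came from SPF donors and shared the same activation, and the groups differed in the recipient. The labels give no age and name no mouse for a library, so replicates may be technical and p-values cover just the spread among the libraries. In such bulk samples, fewer cells that carry a transcript and less transcript per cell cannot be told apart.

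IL-6 binds its own chain, encoded by Il6ra, which then recruits the signalling chain gp130, encoded by Il6st, and gp130 also pairs with the IL-27 receptor chain. The IL-12 receptor joins Il12rb1, shared with the IL-23 receptor, to the signal-giving Il12rb2. IL-18 binds Il18r1 and recruits the accessory chain Il18rap, both of the IL-1 receptor family. Interferon-gamma binds Ifngr1 and needs Ifngr2 to signal, and Il10ra is the ligand-binding chain for IL-10. All except the IL-18 receptor signal through Janus kinases and STAT factors, while the IL-18 receptor signals through MyD88 and IRAK kinases. In CD8+ T cells IL-12 and IL-18 together are known to elicit interferon-gamma without antigen.

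Total counts ranged from 11544960 to 14431533 per library, and levels are given as CPM, read counts scaled to library size after TMM adjustment. A count of 0 allows up to 3 counts, which is 0.205 to 0.262 CPM in these libraries, for counting error only. T cell markers were abundant, with Cd8a between 790.3 and 991 CPM and Cd3e between 336 and 454 CPM, in keeping with the labelled cell type. B cell markers summed to 118 and 142 CPM in the libraries numbered 1 and to 28.7 and 30.2 CPM in those numbered 2. The 9 macrophage and monocyte markers found in the table summed to between 8.06 and 10.6 CPM, and 3 of the 6 neutrophil markers had no count in any library. The 7 dendritic cell markers summed to 398 and 711 CPM in SPF and to 782 and 986 CPM in GF, in the same order over the libraries as Il6ra. Itgax (CD11c), which activated CD8+ T cells also express, carried nearly all of that sum. Of the others, Xcr1 lay between 13.4 and 20.4 CPM with overlapping groups, and Clec9a had 1 count in SPF replicate 1 and none elsewhere. The part of dendritic cells in the receptor levels was not tested.

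Promoter sequence was matched by symbol in a RefSeq table of the GRCm38.p6 assembly for 7 of the 10 genes. The 250 bases before the start site are printed for the 2 IL-18 receptor genes, which are neighbours and among the most abundant members, for Il12rb2, the signalling chain of IL-12, and for Il6ra, the member that varied most. Capitals mark matches to the STAT-type GAS motif TTCNNNGAA, searched on both strands, which read the same. The windows are chr1:40465756-40466005 (plus strand) for the third annotated start of Il18r1, chr1:40515112-40515361 (plus) for Il18rap, chr6:67376189-67376438 (minus) for Il12rb2 and chr3:89913197-89913446 (minus) for Il6ra.
Il18r1: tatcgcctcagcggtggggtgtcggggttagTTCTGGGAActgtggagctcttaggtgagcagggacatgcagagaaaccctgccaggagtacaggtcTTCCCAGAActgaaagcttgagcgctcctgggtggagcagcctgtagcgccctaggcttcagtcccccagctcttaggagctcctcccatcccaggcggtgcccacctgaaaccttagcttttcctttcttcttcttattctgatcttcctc
Il18rap: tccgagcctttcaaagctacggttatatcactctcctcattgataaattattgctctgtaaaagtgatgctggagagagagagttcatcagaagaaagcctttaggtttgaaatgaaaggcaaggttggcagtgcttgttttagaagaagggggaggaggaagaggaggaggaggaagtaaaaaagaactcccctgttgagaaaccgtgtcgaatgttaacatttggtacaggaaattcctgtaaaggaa
Il12rb2: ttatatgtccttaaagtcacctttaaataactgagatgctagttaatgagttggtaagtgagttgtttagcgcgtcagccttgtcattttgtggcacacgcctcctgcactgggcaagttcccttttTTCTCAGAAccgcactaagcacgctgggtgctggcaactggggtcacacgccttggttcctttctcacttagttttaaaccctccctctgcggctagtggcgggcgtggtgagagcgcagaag
Il6ra: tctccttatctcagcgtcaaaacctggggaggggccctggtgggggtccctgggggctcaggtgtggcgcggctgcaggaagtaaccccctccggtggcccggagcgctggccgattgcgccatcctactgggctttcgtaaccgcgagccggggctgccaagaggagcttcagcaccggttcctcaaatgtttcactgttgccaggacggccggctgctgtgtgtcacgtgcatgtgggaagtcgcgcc
The Il18r1 window held 2 GAS matches, starting 219 and 152 bases before the start site, and the Il12rb2 window held 1 match, starting 123 bases before it. No letters of Il6ra or Il18rap matched, and neither did the windows of the other annotated starts of Il18r1 or those of Il6st, Ifngr1 and Ifngr2. The printed Il18r1 window is thus the only window of its annotated starts with a match. It lies after the annotated start of the gene at 40465552. Among 27025 promoters of 300 bases, 8.47% held the motif, 7.93% held the AP-1 motif TGANTCA, 1.27% the T-box motif AGGTGTGA and 16.92% the RUNX motif TGTGGT, each on either strand. These shares take only the first listed promoter of each gene, whereas every annotated start of the receptor genes was searched. By that rule the third Il18r1 start, with its GAS matches, would not count. None of the receptor windows held an AP-1 or T-box match, and RUNX matches lay 22 and 32 bases after the start in the second Il18r1 and the Il18rap window. A match describes letters, not binding.

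The receptor chains differed by orders of magnitude in level. Divided by exonic length in kilobases (CPM per kb), Il18r1 was the highest of the 10, between 143 and 279 CPM per kb in the 4 libraries, and Ifngr1 lay between 162 and 199 CPM per kb. Their ranges overlapped, and Ifngr1 exceeded Il18r1 in SPF replicate 1 alone. Next came Il18rap, at 54.3 to 112 CPM per kb, and Il27ra, at 67.1 to 92.8 CPM per kb, again with overlapping ranges. Il10ra had 23.2 to 45.3 CPM per kb and Il12rb2 13.3 to 24.2 CPM per kb. Below them and without overlap stood Il12rb1 at 4.36 to 9.80 CPM per kb and Il6st at 2.01 to 3.70 CPM per kb. Il6ra had 0.323 to 1.82 CPM per kb, and Ifngr2, the lowest of the members, 0.113 to 0.453 CPM per kb. Set against the 11194 tested genes with an annotated length, whose median was 8.94 CPM per kb, Il18r1, Ifngr1 and Il18rap stood at percentiles 98.3, 98.1 and 95.3. Il12rb1 stood at percentile 45.2, Il6st at 25.4, Il6ra at 14.4 and Ifngr2 at 3.45. The length counts every annotated exon, so a gene with long alternative exons, such as Il6st with 10 transcripts, may be understated. The level of Il12rb2 also depends on how reads in an exon overlap with the gene Serbp1 were assigned, as described below.

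**Figure D1:**
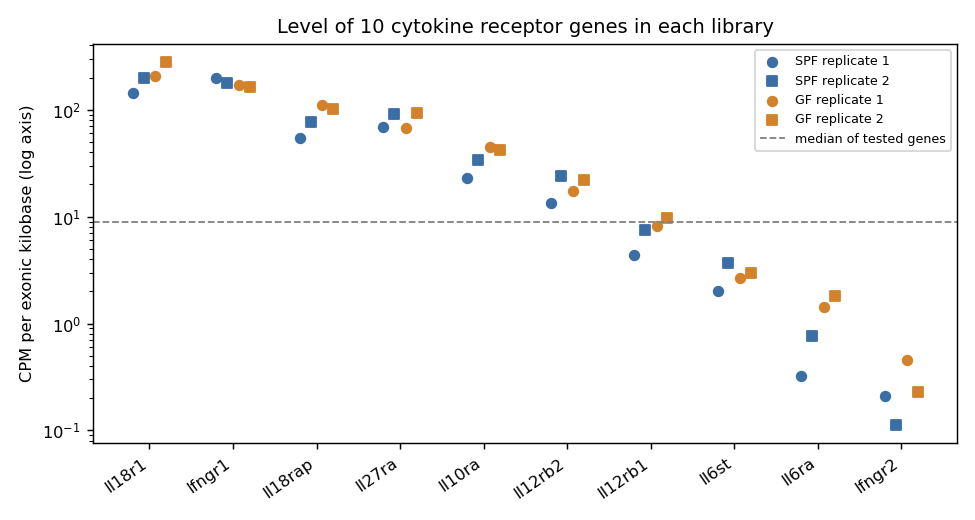
Level of each receptor gene in each library, as CPM per exonic kilobase on a log axis, ordered by mean level, with the median of the tested genes as a dashed line. Il18r1 and Ifngr1 lie between 143 and 279 CPM per kb, and Ifngr2 lies between 0.113 and 0.453 CPM per kb in the same libraries.

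Across recipients the members fell into those with higher values in GF libraries and those without. Each GF value exceeded each SPF value for 6 of the 10 genes (Il6ra, Il12rb1, Il18r1, Il18rap, Il10ra and Ifngr2), where 16.8% of the 11271 tested genes did so. Ifngr1 alone had each GF value below each SPF value, as had 16.4% of tested genes, and Il6st, Il27ra and Il12rb2 overlapped. The median log2 fold change of the 10 was 0.56, against a median of -0.004 over the tested genes. All 10 passed the filter on low counts, and 0 passed the edgeR quasi-likelihood test with Benjamini-Hochberg adjustment over all tested genes, in which 0% were called and the smallest adjusted p was 0.86. DESeq2 also called 0 of the 10, and 0.0799% of all tested genes, and limma-voom called 0 of the 10. At an unadjusted p under 0.05 edgeR counted 2 of the 10, Il6ra and Il18rap, and 3.22% of all tested genes. These 10 genes were chosen with earlier results of the same libraries known, so the counts describe them and test nothing.

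**Figure D2:**
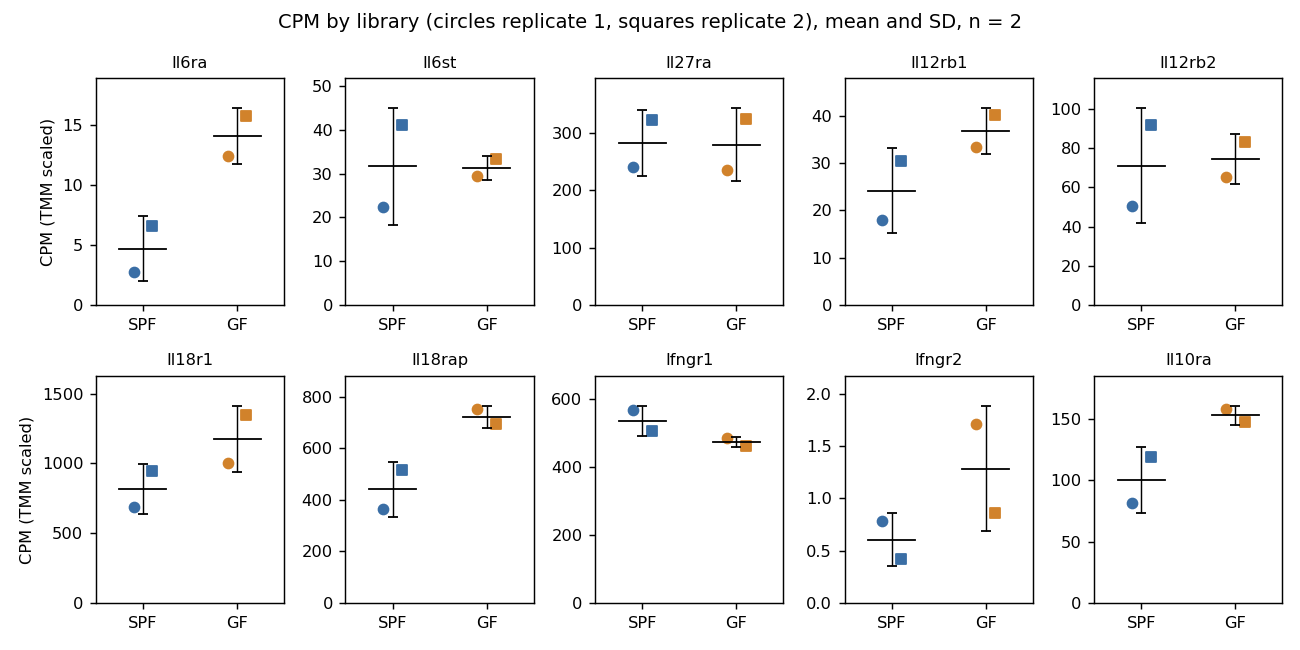
CPM of each receptor gene by recipient, with circles for replicate 1, squares for replicate 2, lines for means and bars for the SD (n = 2). Il6ra, Il12rb1, Il18r1, Il18rap, Il10ra and Ifngr2 have both GF points above both SPF points, while Il6st, Il27ra and Il12rb2 overlap and Ifngr1 has both GF points below.

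Among the chains of the IL-6 family, the private IL-6 chain and the shared chain gp130 differed in pattern. Il6ra (chromosome 3, 89864059 to 89913196, minus strand, GRCm38) measured 2.80 and 6.64 CPM in SPF replicates 1 and 2 and 12.4 and 15.7 CPM in GF replicates 1 and 2, from 32, 94, 182 and 220 reads. The GF mean was 2.99 times the SPF mean. The 95% exact Poisson intervals of the closest libraries across groups, 5.37 to 8.13 CPM for SPF replicate 2 and 10.7 to 14.4 CPM for GF replicate 1, did not overlap. However, the interval of SPF replicate 1, 1.91 to 3.95 CPM, did not overlap that of SPF replicate 2 either. Such intervals cover counting error only, so the gap says nothing about the spread among libraries of a group. The log2 fold change of 1.57 (SE 0.48) had an edgeR adjusted p of 0.86 and the smallest unadjusted p of the 10, rank 119 among all tested genes. It was 2.10 within replicate number 1 and 1.23 within number 2, where SPF replicate 1 was the lowest library. With SPF replicate 1 left out the log2 fold change was 1.09, and with SPF replicate 2 left out it was 2.32. Over 11194 genes, not independent replicates, fold changes rose with exonic length (Spearman's rho 0.36), and with that trend removed the log2 fold change of Il6ra was 1.46. Exons of Il6ra overlap the antisense gene Gm42809 over 242 of 8642 bases, and these counts do not separate strands.

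Il6ra is also expressed by monocytes and by naive T cells. The 9 macrophage and monocyte markers summed to 10.3 and 8.06 CPM in SPF and to 10.4 and 10.6 CPM in GF, scaled by plain library totals. Their most abundant genes differed in pattern, since Cd68 had 40 and 91 counts in SPF and 60 and 151 in GF, whereas Lyz2 had 48 and 8 counts in SPF and 65 and 0 in GF. In GF replicate 2, where Il6ra was highest, Cd68 was thus highest as well, while Lyz2, Cd14 and Csf1r had 0 counts. The part of such cells in the Il6ra counts was not tested. The genes whose centred log2 CPM over the 4 libraries lay closest to Il6ra were Smtn (Euclidean distance 0.23), Tns1 (0.24), B4galnt4 (0.27), Lrp5 (0.28) and Igf1r (0.31). All 5 were lowest in SPF replicate 1 and separated the groups as Il6ra did, with log2 fold changes of 1.29 to 1.74. This follows from picking them by that distance, so it adds nothing about Il6ra. With 4 libraries such likeness describes their order and little else.

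Il6st (chromosome 13, 112464070 to 112510086, plus strand) measured 22.3 and 41.0 CPM in the SPF and 29.4 and 33.2 CPM in the GF libraries. The GF values lay inside the SPF range, with a log2 fold change of -0.02 (SE 0.34, edgeR adjusted p = 0.99). Il27ra (chromosome 8, 84030294 to 84042589, minus strand), the ligand-specific chain for IL-27, measured 241 and 322 CPM in SPF and 234 and 324 CPM in GF. Values were alike between recipients and higher in number 2 of each, and the log2 fold change was -0.01 (SE 0.28, edgeR adjusted p = 0.99).

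Because chains of a receptor act as partners, their ratio was also taken within each library, where library scaling drops out. The log2 ratio of Il6ra to Il6st counts (0.5 added to each count) was -2.97 and -2.62 in SPF and -1.24 and -1.07 in GF, with no overlap and a difference of 1.64. Per kilobase, Il6st thus exceeded Il6ra by 6.20 and 4.81 times in SPF and by 1.84 and 1.64 times in GF. The difference lay between 1.46 and 1.82 with any library left out. An exact two-sided permutation test gave p = 0.33, which is the smallest p that 2 libraries against 2 allow, for 4 such ratios computed.

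**Figure D3:**
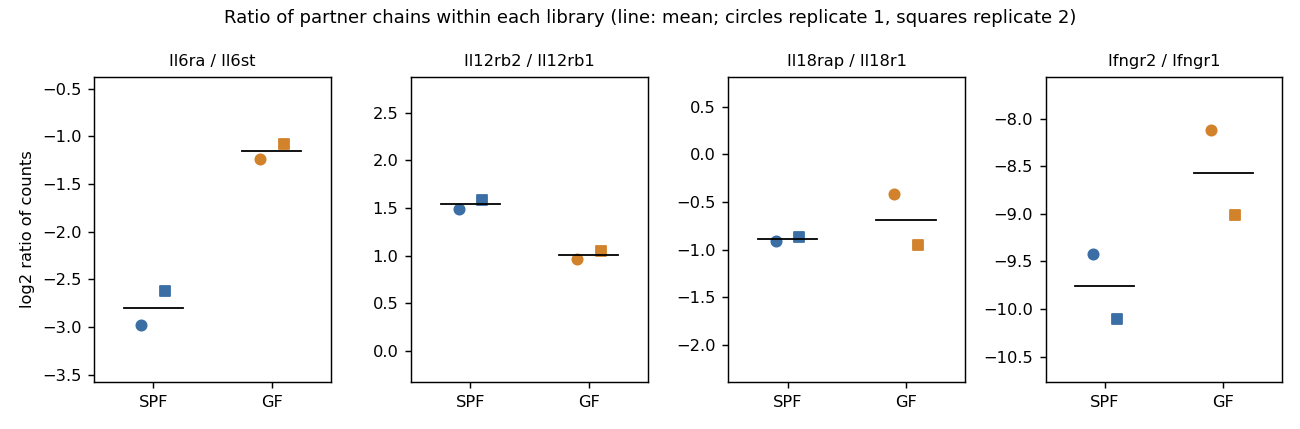
Log2 ratio of the counts of partner chains within each library, for 4 receptors, with lines for group means, circles for replicate 1 and squares for replicate 2; every axis spans the same range. Il6ra to Il6st and Il12rb2 to Il12rb1 separate SPF from GF libraries in opposite directions, and Il18rap to Il18r1 overlaps. Ifngr2 to Ifngr1 also separates the groups, with GF higher, but rests on 6 to 25 Ifngr2 reads per library.

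The IL-12 receptor chains also differed from each other. Il12rb1 (chromosome 8, 70808449 to 70821424, plus strand) measured 17.9 and 30.5 CPM in SPF and 33.4 and 40.2 CPM in GF. The groups did not overlap, although SPF replicate 2 and GF replicate 1 were close, and the log2 fold change was 0.60 (SE 0.32, edgeR adjusted p = 0.86). It was 0.27 without SPF replicate 1 and 1.03 without SPF replicate 2. Il12rb2 (chromosome 6, 67291318 to 67376188, minus strand) measured 50.4 and 91.9 CPM in SPF and 65.3 and 83.4 CPM in GF, so the GF values lay between the SPF values. Its log2 fold change was 0.06 (SE 0.34, edgeR adjusted p = 0.97). The log2 ratio of Il12rb2 to Il12rb1 was 1.49 and 1.59 in SPF and 0.97 and 1.05 in GF, a difference of -0.53, with SDs of 0.07 and 0.06 within the groups (exact two-sided permutation p = 0.33, the smallest possible). Per kilobase, Il12rb2 exceeded Il12rb1 by 3.05 and 3.26 times in SPF and by 2.12 and 2.24 times in GF. Of the 3794 exonic bases of Il12rb2, 1519 overlap exons of Serbp1 on the opposite strand. Serbp1, an RNA-binding protein gene, measured 579 and 469 CPM in SPF and 402 and 406 CPM in GF. How reads in that overlap were assigned is not given in the sources used here, and the part of Serbp1 in the Il12rb2 counts was not tested. The values per kilobase divide by all 3794 bases, so Il12rb2 would be understated if reads in the overlap were left uncounted.

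The IL-18 receptor chains were abundant in every library. Il18r1 and Il18rap lie next to each other on chromosome 1 on the plus strand, from 40465552 to 40500854 and from 40515362 to 40551705, with 14507 bases between them. Il18r1 measured 689 and 946 CPM in SPF and 1006 and 1344 CPM in GF. The groups did not overlap, but SPF replicate 2 and GF replicate 1 differed by a log2 value of 0.09 only, and the log2 fold change was 0.52 (SE 0.29, edgeR adjusted p = 0.86). Il18rap measured 366 and 517 CPM in SPF and 753 and 693 CPM in GF. Its GF mean was 1.64 times the SPF mean, with a log2 fold change of 0.71 (SE 0.26), the second smallest unadjusted p of the 10 and an edgeR adjusted p of 0.86. Within replicate number 1 the Il18rap difference was 1.04 and within number 2 it was 0.42, whereas for Il18r1 these were 0.55 and 0.51. With a library left out the Il18r1 log2 fold change still ran from 0.30 (without GF replicate 2) and 0.31 (without SPF replicate 1) to 0.76 (without SPF replicate 2), and that of Il18rap from 0.48 to 0.97. The log2 ratio of Il18rap to Il18r1 was -0.91 and -0.87 in SPF and -0.42 and -0.96 in GF, which overlapped (exact two-sided permutation p = 1). NK cells also carry both chains, and the 7 NK markers summed to 97.7 and 72.3 CPM in SPF and 56.8 and 48.4 CPM in GF, with 4 of the 4 tested markers lower in both GF libraries, as were 16.4% of all tested genes. Their part was not tested, and the NK gene Ncr1 had at most 3 counts in any library, while Klra8 and Klra4 had none.

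The interferon-gamma receptor chains were the most unequal of the 4 pairs. Ifngr1 (chromosome 10, 19591949 to 19610229, plus strand) measured 568 and 505 CPM in SPF and 485 and 463 CPM in GF, the narrowest spread of the 10. Each GF value was below each SPF value, with a log2 fold change of -0.18 (SE 0.21, edgeR adjusted p = 0.86) that ran from -0.27 to -0.09 with a library left out. With the trend with exonic length removed, the log2 fold change of Ifngr1 was -0.07. Ifngr2 (chromosome 16, 91547072 to 91565623, plus strand) had 9 and 6 reads in SPF and 25 and 12 reads in GF, or 0.79, 0.42, 1.71 and 0.86 CPM. The 95% exact Poisson intervals of SPF replicate 1 and GF replicate 2, which start at 0.359 and 0.444 CPM around values of 0.79 and 0.86 CPM, overlapped, so a difference between these libraries was not detectable at this depth. The log2 fold change of Ifngr2 was 1.10 (SE 0.64, edgeR adjusted p = 0.86), and it was 0.51 without GF replicate 1 and 1.58 without SPF replicate 1. The log2 ratio of Ifngr2 to Ifngr1 was -9.42 and -10.1 in SPF and -8.12 and -9.01 in GF, without overlap. The difference was 1.19 (exact two-sided permutation p = 0.33, the smallest possible) and rests on these few Ifngr2 reads. Per kilobase Ifngr1 exceeded Ifngr2 by 956 and 1576 times in SPF and by 376 and 713 times in GF. Low Ifngr2 is known from mouse T helper 1 cells.

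Il10ra (chromosome 9, 45253837 to 45269149, minus strand) measured 81.1 and 119 CPM in SPF and 158 and 147 CPM in GF. The groups did not overlap, and the log2 fold change was 0.61 (SE 0.26, edgeR adjusted p = 0.86), with 0.97 within replicate number 1 and 0.30 within number 2. It was 0.36 without SPF replicate 1 and 0.91 without SPF replicate 2. Its partner Il10rb, which IL-10 shares with other cytokines, measured 127 and 104 CPM in SPF and 109 and 94.97 CPM in GF, and overlapped.

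**Figure D4:**
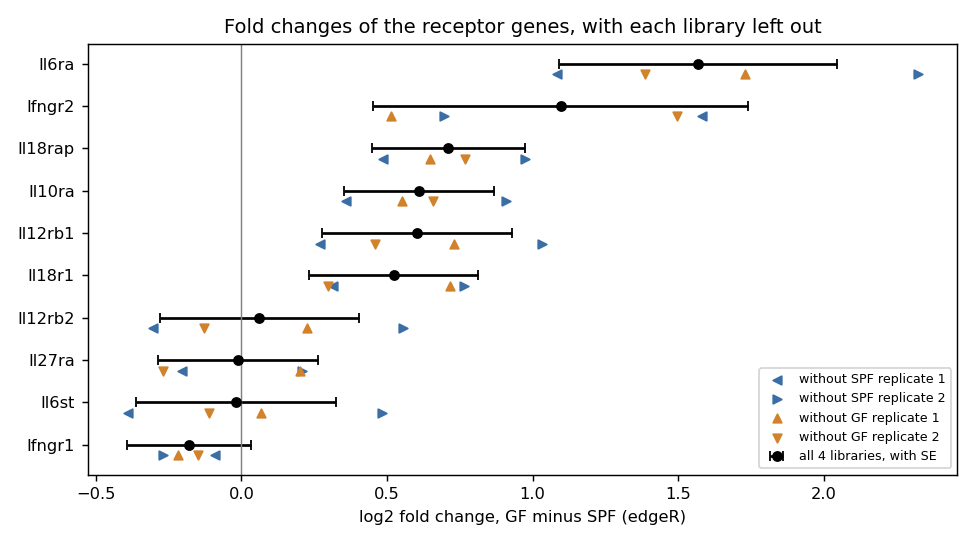
Log2 fold change of each receptor gene, GF minus SPF, from edgeR with all 4 libraries (black, bars show the SE) and with each library left out (coloured). Il6ra stays between 1.09 and 2.32, while Il6st, Il27ra and Il12rb2 fall on either side of 0 depending on the library left out.

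Several of these genes also differed in level between the replicate numbers. SPF replicate 1 was the lowest library for 7 of the 10, where 37.9% of tested genes were lowest there. This count partly restates the separation of the groups. For Il6ra, Il12rb1, Il18r1, Il18rap and Il10ra, with each GF value above each SPF value, the lowest library could only be an SPF library. In both groups 6 of the 10 were higher in number 2 than in number 1, against 38.8% of tested genes. Within both replicate numbers 6 of the 10 had the GF library above the SPF library, against 37.3% of tested genes. These were the 6 with each GF value above each SPF value, from which this follows, so the count adds nothing to that separation. Without SPF replicate 2, edgeR called 4 of the 10 higher in GF, where it called 6.77% of the genes tested then. These were Il6ra (adjusted p = 0.00049), Il12rb1 (adjusted p = 0.038), Il18rap (adjusted p = 0.044) and Il10ra (adjusted p = 0.0496). That comparison rests on the single library SPF replicate 1, which is assumed to vary like the GF libraries. No receptor gene was called with any other library left out. B cell marker sums, given above, also followed the replicate number, and their part in these differences was not tested.

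Most ligands of these receptors and of their gp130 relatives had few or no counts in these libraries. Of 15 ligand genes 4 had enough counts to be tested, 0 passed the edgeR test after adjustment (median log2 fold change 0.38), and Il10, Il12b and Ctf1 had no count in any library. Il6 had 1 count, in GF replicate 1. Ifng measured 19.7 and 49.3 CPM in SPF and 26.1 and 68.8 CPM in GF, with the order following the replicate number (log2 fold change 0.46, SE 0.61). Clcf1, a cytokine of the gp130 group, measured 41.5 and 79.3 CPM in SPF and 78.7 and 98.3 CPM in GF, and Osm (oncostatin M) lay between 29.0 and 46.4 CPM. Without SPF replicate 2, edgeR called Ifng (log2 fold change 1.26, adjusted p = 0.0063) and Clcf1 (1.09, adjusted p = 0.015) higher in GF. Il18 was low, between 1.48 and 2.88 CPM.

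Among 16 related receptors and decoys 9 were tested, with 0 called and a median log2 fold change of -0.02. Sigirr, an inhibitory member of the IL-1 receptor family, measured 120 and 129 CPM in SPF and 162 and 141 CPM in GF, and the type I interferon receptor gene Ifnar1 197 and 253 against 256 and 311 CPM. Lifr and Osmr, partners of gp130 for other ligands, had at most 2 counts in any library. Il1r1, the signalling receptor for IL-1, had 1 count in SPF replicate 1 and 0 counts in the other libraries. Lifr, Osmr and Il1r1 were picked after their values were seen.

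All 11 proximal signalling genes were tested, and 0 were called (median log2 fold change 0.13). The kinase gene Jak1, used by IL-6, IL-10 and interferon-gamma receptors, was the most abundant of the panel, at 1042 and 1471 CPM in SPF and 1179 and 1563 CPM in GF. Stat4, the STAT factor of IL-12 signalling, measured 363 and 330 CPM in SPF and 267 and 283 CPM in GF, with each GF value below each SPF value (log2 fold change -0.33, SE 0.20). Stat3, used by IL-6 and IL-10, measured 218 and 275 CPM in SPF and 266 and 318 CPM in GF. Irak1, a kinase of IL-18 signalling, measured 158 and 178 CPM in SPF and 219 and 221 CPM in GF (log2 fold change 0.38, SE 0.20). Log2 fold changes of Jak2, Tyk2 and Myd88 were 0.20 (SE 0.26), 0.36 (SE 0.40) and 0.10 (SE 0.20).

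Of 13 negative regulators 0 were called, and the median log2 fold change was 0.06. Cish, a STAT5-induced inhibitor, measured 50.1 and 42.3 CPM in SPF and 66.2 and 81.4 CPM in GF, and had the smallest unadjusted p of the list (log2 fold change 0.68, SE 0.23, edgeR adjusted p = 0.86). Socs3, which restrains gp130 signalling, measured 51.5 and 69.5 against 57.8 and 81.7 CPM, and Socs1, which restrains interferon-gamma signalling, 44.9 and 21.3 against 24.9 and 24.4 CPM. Both overlapped between groups. Tnfaip3, an inhibitor of NF-kappaB signalling, also overlapped, with a log2 fold change of 0.82 (SE 0.53), and of 1.36 without SPF replicate 2. The proteases ADAM10 and ADAM17, which can shed the IL-6 receptor, had transcripts with log2 fold changes of -0.05 (Adam10, SE 0.21) and 0.06 (Adam17, SE 0.25).

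Of 18 response genes 0 were called, and the median log2 fold change was 0.21. Prdm1 (BLIMP-1) measured 34.1 and 36.6 CPM in SPF and 40.0 and 48.1 CPM in GF, and Junb 197 and 415 against 358 and 548 CPM. The interferon-induced GTPase gene Irgm1 measured 146 and 105 against 109 and 94.97 CPM. The groups separated with GF higher for 2 of the 18 and with GF lower for 2 of the 18, against 16.8% and 16.4% of all tested genes, so neither share exceeded the background. Junb and Gadd45b, a stress-induced gene, overlapped between groups and were lowest in SPF replicate 1. With all libraries their log2 fold changes were 0.57 (SE 0.43) and 0.64 (SE 0.45). Without SPF replicate 2, which leaves SPF replicate 1 alone in its group, they were 1.20 and 1.14.

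**Figure D5:**
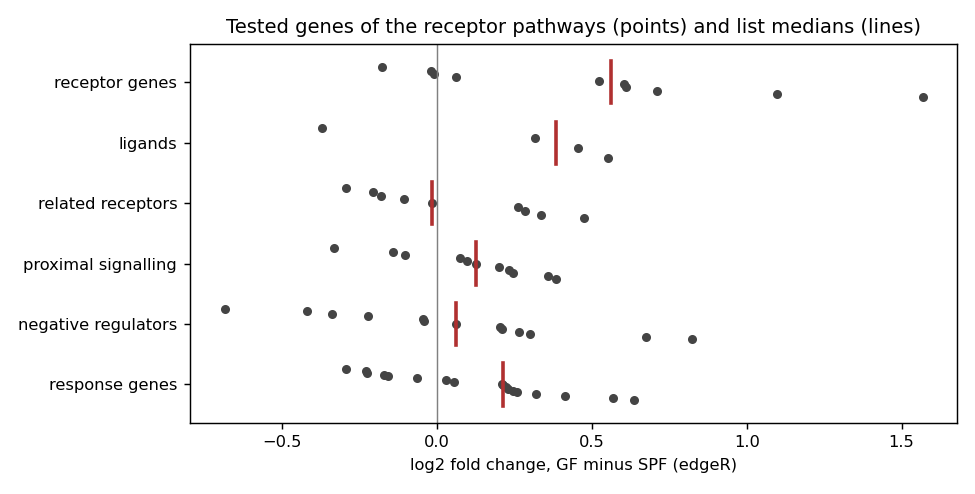
Log2 fold changes, GF minus SPF, of the tested genes of each list (points) with the list median (line). The receptor genes have a median of 0.56, the 4 tested ligands 0.38, the response genes 0.21, the proximal signalling genes 0.13, the negative regulators 0.06 and the related receptors -0.02.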

How the data were processed

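The authors deposited raw read counts per gene, not normalized, in a table with 1 column per library, and the column names stand in the labels of each sample. Per the submitters' processing notes, reads were handled with CASAVA, TopHat, Picard, Subread, featureCounts and edgeR on the mm10 build, with no versions or settings. The annotation behind the counts was not given in the sources at hand. Libraries were made, per the labels' protocols, with a TruSeq RNA kit that keeps no strand information.

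The test was the quasi-likelihood F test of edgeR 4.0.16 (R 4.3.3) on GF against SPF with no covariate. It used TMM scaling and the filterByExpr filter (11271 genes kept), was two-sided, and was adjusted by Benjamini-Hochberg with 0.05 as threshold. The standard error of a fold change is its size over the square root of the F statistic. Log2 CPM values used a prior count of 2. Sums of cell markers used plain library totals. Exonic lengths and positions came from GENCODE M21 (GRCm38, the assembly of mm10), which gave a length to 99.3% of tested genes. The edgeR fit, its variants with RLE scaling, replicate block or length trend removed, DESeq2 and limma-voom were run on simulated counts. The other filters, left-out libraries, ratios and motif search were not. The simulated libraries varied less than the real ones (edgeR common dispersion 0.076), so the check does not show how the fits perform at the real spread. Alternatives were other scalings, filters, DESeq2 1.42.0, limma-voom (limma 3.58.1), the replicate number as a block, removal of the trend with transcript length, and each library left out.

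The members, gene lists and tests were chosen with earlier results of these data known. Named genes are all 10 receptor chains, the 4 genes of each list with the smallest p, a panel of direct pathway genes, and the 5 genes most like the receptor gene of widest range. Some genes that this rule names are not reported here. Others are marked in the text or named for a count of 0. The genes Cd14, Cd68, Csf1r, Lyz2, Ncr1, Klra8, Klra4, Cd8a, Cd3e, Clec9a, Xcr1 and Itgax come from the cell marker lists, and Adam10, Adam17 and Serbp1 were picked after their values were seen. Figures were drawn with matplotlib 3.10.9.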

Additional observations from a re-analysis of the deposited data

How the results depend on the processing

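The count of 0 receptor genes called held under RLE scaling, both other filters, DESeq2, limma-voom and removal of the length trend. It did not hold with the replicate block, which called 5 (Il6ra, Il12rb1, Il18r1, Il18rap and Il10ra), with or without removal of the length trend, or with libraries left out (0 to 4). Of the named genes of the pathway lists, the block also called Clcf1 (adjusted p = 0.026), Cish (0.016), Tnfaip3 (0.0055), Junb (0.017) and Gadd45b (0.047) higher in GF, and with the length trend removed as well it called these and Ifng (0.0053). Over all genes, of which the main fit tested 11271 and called 0, DESeq2 called 8 higher and 1 lower in GF. The replicate block called 786 higher and 420 lower, and the block with the length trend removed 758 and 443. The 5 receptor genes called with the block thus came with a rise in calls over all genes. With each library left out the counts ran from 0 to 783 higher and from 0 to 544 lower. No label says what a replicate number marks, so the libraries were not treated as paired, although differences by number in SPF and GF correlated across genes (r = 0.71). The difference of number 2 minus number 1 also rose with exonic length, in SPF (Spearman's rho 0.51) and in GF (0.46). The cause of these differences and of the moves in the counts was not tested.

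Il6st turned positive with limma-voom (0.032) and with the replicate block (0.036), and Il27ra with the length trend removed (0.042 with or without the block). Il18 turned positive with the length trend removed (0.021, and 0.015 with the block). With each library left out, log2 fold changes ran from -0.39 to 0.48 for Il6st, -0.27 to 0.21 for Il27ra and -0.30 to 0.55 for Il12rb2. They ran from -0.79 to 0.17 for Il18, -0.41 to 1.26 for Ifng, -0.10 to 0.39 for Jak1, -0.0022 to 0.43 for Jak2 and -0.035 to 0.90 for Tyk2. For Socs1 they ran from -0.87 to 0.22, for Socs3 from -0.070 to 0.43 and for Tnfaip3 from -0.0011 to 1.36. The 7 other receptor genes kept their direction in every setting in which they were tested. The cause was not tested. In the main fit the changes of Il18r1, Il12rb1, Ifngr2, Ifngr1, Il6st, Il27ra and Il12rb2 were under 2 standard errors. Those of Il6ra, Il18rap and Il10ra were larger than that, yet each had an edgeR adjusted p of 0.86 with 2 libraries a group. Ifngr2 rested on 6 to 25 reads per library.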
